A study of Mus musculus with 4 samples.

Results

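Egr2 binding at the Id3 and Id2 loci was read from the peak lists of 2 mouse ChIP-seq libraries. The regions were chosen by position: a listed region was taken when it overlapped a window of 160 kb at Id3 (mm9, chr4:135600000-135760000) or one of 160 kb at Id2 (mm9, chr12:25700000-25860000). The windows were selected on earlier results of these lists, since the Id3 window was drawn to hold a tall region seen in injected thymocytes, so the presence and the height of that region are given as a description and are not tested. Of 6212 listed regions in all, 4 lay in the windows. All 4 came from the injected-thymocyte list, which holds 4216 regions: 3 were in the Id3 window and 1 was in the Id2 window. The NKT list, with 1996 regions, had 0 regions in either window.

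The first library was made from thymocytes of mice given 500 µg of the anti-TCRβ antibody H57, which engages the T cell receptor (TCR) in vivo. The cells were collected after 24 hours from 3 to 5 mice. The second was made from NKT cells of Va14tg mice, enriched with CD1d tetramers and pooled from about 10 mice. The labels give the strain Va14tg, which carries a transgenic invariant TCR α chain, to both libraries, and 20000000 cells went into each. The antibody against Egr2 (Krox-20) was the same. No untreated thymocytes are among the Egr2 libraries, and cell population, TCR stimulation and library differ together, so their parts in a difference between the lists cannot be told apart. Each condition had 1 library, so differences between the lists could not be set against a spread between replicates. The lists hold binding positions and no expression values, so neither the cell types nor the levels of Id3 and Id2 could be read from them.

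Id3 and Id2 encode inhibitor of DNA binding proteins. These have a helix-loop-helix domain but no basic region, pair with E proteins such as E2A and HEB, and keep them from binding DNA. E proteins hold developing thymocytes at the checkpoints of TCR selection. Id3 is induced by TCR signals through the ERK pathway and Egr factors, zinc-finger proteins that bind GC-rich DNA, and Id2 and Id3 together shape the development of NKT cells, in which E proteins also act.

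The gene order around both genes was taken from a RefSeq table of another build (GRCm38), by name only. Id3 is on the forward strand. Its next genes on the upstream side are the long noncoding RNA gene Gm42329 and then Rpl11, which encodes a ribosomal protein. On the downstream side lie E2f2, a cell-cycle transcription factor gene, and Asap3. Id2 is on the reverse strand. Upstream of it are the noncoding RNA genes Gm17746 and Gm36287, and downstream is Kidins220, a membrane scaffold gene. Distances from the listed regions to these genes were not computed, because no mm9 annotation was used here and coordinates were not converted. Gm42329 or Rpl11 may therefore be nearer than Id3 to a region of the Id3 window, and Kidins220 or Gm17746 nearer than Id2 to the region of the Id2 window. Id1, Id4 and the E-protein genes Tcf3, Tcf4 and Tcf12 were not located in mm9, and listed regions near them were not analysed here.

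The sequences under the listed regions were not read, as no mm9 genome was used here. The promoters of the 2 genes are shown instead, because they are the regulatory DNA of these loci for which a sequence was at hand. Both stretches are the 250 bases before the annotated start, from RefSeq (GRCm38.p6), on the strand of the gene, at chr4:136143572-136143821 (forward) for Id3 and at chr12:25096093-25096342 (reverse) for Id2. These coordinates belong to GRCm38 and cannot be set against the mm9 positions of the regions. Capitals mark the match to an EGR-like motif described next.
Id3: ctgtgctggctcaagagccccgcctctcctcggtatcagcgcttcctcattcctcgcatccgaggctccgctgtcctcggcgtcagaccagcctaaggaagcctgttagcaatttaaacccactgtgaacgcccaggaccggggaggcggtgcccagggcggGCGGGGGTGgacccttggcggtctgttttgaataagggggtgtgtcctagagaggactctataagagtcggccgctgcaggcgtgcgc
Id2: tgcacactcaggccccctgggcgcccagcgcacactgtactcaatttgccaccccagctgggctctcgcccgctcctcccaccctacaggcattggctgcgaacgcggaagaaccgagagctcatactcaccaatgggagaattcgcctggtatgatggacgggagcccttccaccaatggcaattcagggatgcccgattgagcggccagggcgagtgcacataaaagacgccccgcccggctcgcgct

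The EGR motifs GCGTGGGCG and GCGGGGGCG were searched on both strands of these 250 bases. Each had 0 matches in Id3 and 0 in Id2. Over the 32851 promoter entries of that table, cut to the same length, 0.536% held the first and 2.57% held the second. A looser form, GCGNGGGNG, contains both of these motifs and was chosen after the sequences had been seen. It matched 1 time in Id3, as GCGGGGGTG on the gene's strand from base 88 to base 80 before the start, and 0 times in Id2, whereas 10.5% of the entries held a match. The G and C content was 62.8% in both promoters, against a median of 52.4% over all entries. Whether a listed region lies at either promoter was not determined.

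The tall region of the Id3 window was chr4:135637590-135638108 in injected thymocytes, 519 bp wide with its summit at position 135637847. Its ChIP tag density, the authors' height value, was 51.96 (its scaling is not stated), and its control density was 0. The region held 138 ChIP tags against 1 control tag. After scaling by the factor that relates both tag counts in this list, 0.742, the ratio was 102 with a 95% exact interval of 18.07 to 4071, which covers counting error only. The deposited tag enrichment was lower, 21.9. It is not this ratio of both counts, so its place within the interval does not bear the ratio out. The tall region thus stood far above its control at this depth, while the size of the enrichment was poorly fixed by a single control tag.

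The middle region, chr4:135651686-135652003, lay 14.02 kb from the tall one, summit to summit, and was 318 bp wide. It reached a density of 19.3 with a control density of 0, and held 31 ChIP tags and 2 control tags. The scaled ratio was 11.5 (interval 2.93 to 99.1) and the deposited tag enrichment 8.02. The weak region, chr4:135660490-135660663, followed 8.74 kb further on and was 174 bp wide. Its density was 10.8, its control density 1.84 and its deposited fold, the ratio of both densities, 5.85, with 14 ChIP tags and 2 control tags. Its scaled ratio was 5.19 (interval 1.19 to 47.1) and its deposited tag enrichment 3.82. Heights thus fell from the tall region to the weak one along the chromosome, and the tall region held 75.4% of the 183 ChIP tags in the Id3-window regions. All 3 lay in the lower-coordinate part of the window, with summits at -42.2, -28.1 and -19.4 kb from its centre.

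The Id2 window held the region chr12:25783222-25783346, 125 bp wide, with its summit 3.29 kb above the window centre. Its density was 10.7 and its control density 0. It rested on 14 ChIP tags and no control tag, and against a floor of 3 control tags for the region the scaled ratio was 3.46. That value leaves out the counting error of the ChIP tags and is not a lower limit. The exact interval of the counts themselves, without that floor, began lower, at 2.46, and had no upper limit. The deposited tag enrichment was 3.82, the same as for the weak Id3-window region with its 2 control tags. Of the 459 injected-thymocyte regions with 14 ChIP tags, 231 carried this enrichment, the highest in that set, so the value does not separate the 2 weak regions. By the number of tags the Id2-window region and the weak Id3-window region were alike.

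**Figure D1:**
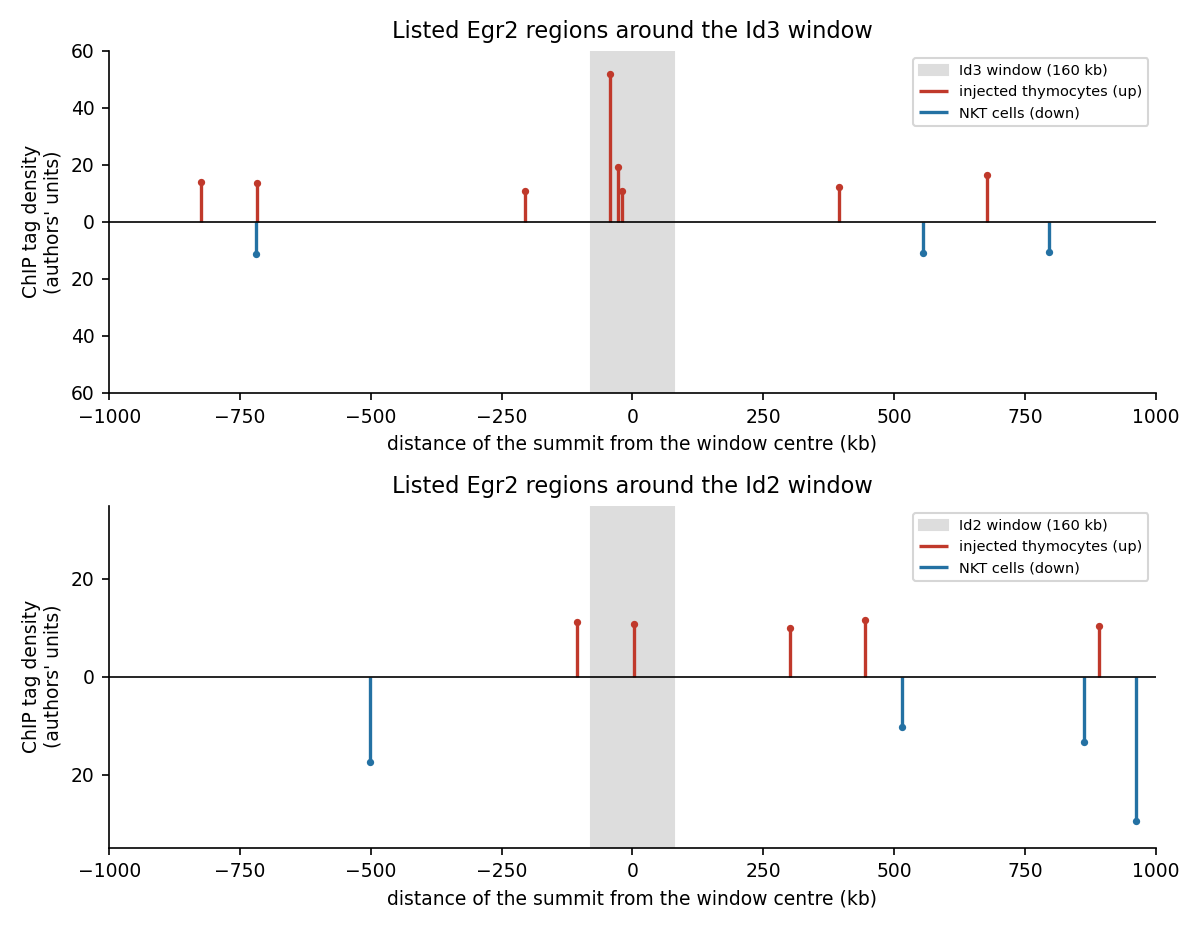
Listed Egr2 regions within 1000 kb of the centre of the Id3 window (upper panel) and of the Id2 window (lower panel), by distance of the summit in kb. Bars give the authors' ChIP tag density, upward for injected thymocytes and downward for NKT cells, and the grey band is the 160 kb window. The Id3 window holds 3 injected-thymocyte regions, the tallest at 51.96, the Id2 window holds 1 at 10.7, and no NKT region lies in either band.

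Within the injected-thymocyte list the 4 regions ranked far apart. The tall Id3-window region was at rank 19 by density, so that 0.451% of the list stood at or above it, and its nearest listed neighbours in height had 52.1 and 51.6. It was the tallest of the 249 listed regions on chromosome 4. By ChIP tags it was at rank 17. The middle region had 408 regions at or above it (9.68% of the list). The weak region had 2670 (63.3%), and 121 regions including it had the same density. The Id2-window region had 2793 (66.2%), close to the lowest listed density of 10.03. Only the tall and the middle regions of the Id3 window were in the upper quartile of the list by density, and the other 2 were in the third. The authors' ranks by q value run to 5201 in the peak lines and 4976 in the region lines, beyond the 4216 regions listed here. They were 17, 460, 3161 and 3304 in the peak lines, in the same order as the densities. These peak-line ranks were not independent of density. The region chr4:135474840-135475057, below the Id3 window, had the density of the weak region and also its rank of 3161. In the region lines the ranks were 34 and 667 for the tall and the middle region, and 4100 for the weak region and the Id2-window region, which were tied. The deposited −log10 q value of the region lines was 598 for the tall and 40.07 for the middle region, and 4.67 for the weak region and the Id2-window region. In the peak lines it was higher in all 4, at 726 for the tall, 91.6 for the middle and 24.7 for the weak region, and 24.3 for the Id2-window region.

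**Figure D2:**
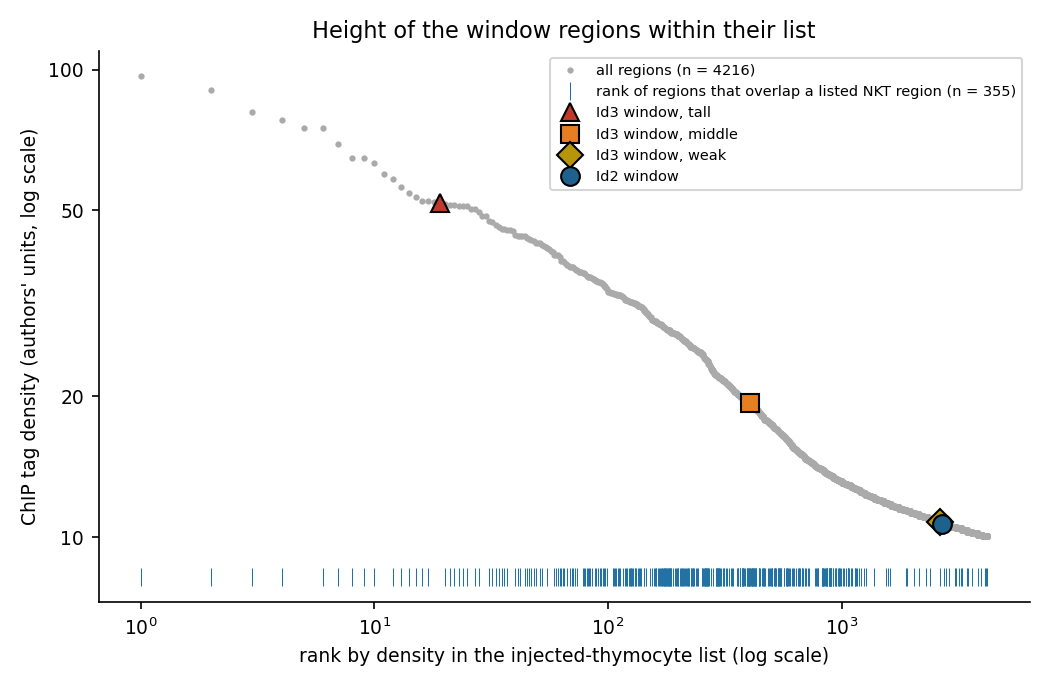
ChIP tag density (authors' units, log scale) of the 4216 injected-thymocyte regions against their rank by density (log scale). Large symbols are the 3 regions of the Id3 window and the region of the Id2 window, and blue ticks at the bottom mark the ranks of the 355 regions that overlap a listed NKT region. The tall Id3-window region has 52.0 at rank 19, whereas the weak one and the Id2-window region lie together near 10.7.

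None of the 4 regions overlapped a listed NKT region; over the whole injected-thymocyte list 8.42% of regions did. For the weak Id3-window region and the Id2-window region this was the usual case: of the 1054 regions in their quartile 9 were shared (0.854%). Among the 408 regions at or above the middle region 211 were shared (51.7%). Among the 19 regions at or above the tall region 15 were shared (78.9%), and the tall region was 1 of the 4 that were not. These 19 were chosen by the height that also placed the Id3 window, and the shares describe the list without a test. Among the 3861 regions that overlapped no NKT region, the tall Id3-window region was at rank 4 by density. Among the 3670 of them with a control density under 3, it was at rank 2. Both ranks describe a region that the window was drawn to hold.

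The nearest NKT regions were far from both windows. For all 3 Id3-window regions the nearest listed NKT summit was that of chr4:136235880-136235991, at 598 kb, 584 kb and 575 kb. It was weak, with a density of 10.8 and 12 ChIP tags against no control tag. On the other side the closest was chr4:134960023-134960270, 640 kb outside the window, with a density of 11.3 and 25 ChIP tags over 7 control tags. For the Id2-window region the nearest NKT summit was 505 kb away, in chr12:25278018-25278350. That region was taller, with a density of 17.5 and 33 ChIP tags over 5 control tags, and 6.36% of the NKT list stood at or above it. It overlapped no listed injected-thymocyte region. The NKT region on the far side of the Id2 window, chr12:26295535-26295662, had a density of 10.2.

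Long empty stretches were common in the NKT list. The NKT summits on either side of the Id3 window were 1276 kb apart, and 34.3% of the 1976 distances between neighbouring NKT summits on a chromosome were at least as long. The summits around the Id2 window were 1017 kb apart, and 42.0% of the distances were at least as long, with a median of 790 kb. Counted by length, distances at least as long made up 74.6% of the summed length between the first and last NKT summit of each chromosome for Id3, and 81.5% for Id2. Of 15744 consecutive tiles of 160 kb, 11.3% held 1 or more NKT regions, so an empty window of this size was the usual state of that list. An absent region means only that none was listed: the lowest NKT density listed was 9.96, and 889 of the region numbers up to 2885 are absent from the NKT list as analysed. The number of NKT tags at the Id3 and Id2 positions was not analysed here.

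The count of 3 listed regions in the Id3 window was rarer. Of 15911 tiles of 160 kb in injected thymocytes, 0.572% held 3 or more listed regions, and 21.8% held 1 or more, the count of the Id2 window. The Id3 window was placed on a known region, unlike the tiles, and its share is a description. The 3 Id3-window summits spanned 22.8 kb. Over the list, 123 regions (2.92%) belonged to a run of 3 neighbouring summits within that span. Of the 100 tallest injected-thymocyte regions, 16 had another listed summit within 25 kb and 2 had 2 or more, of which the tall Id3-window region was 1. Among the 19 at or above its height it was the only 1 with 2 listed neighbours within 25 kb, and 3 of the 19 had at least 1. The Id2-window region had none within that distance.

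**Figure D3:**
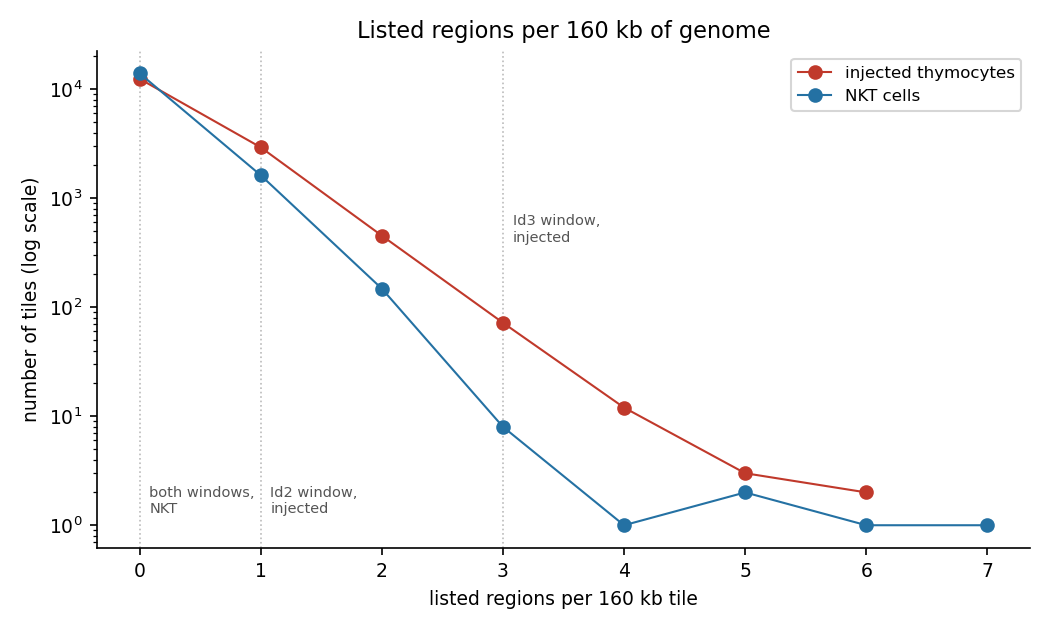
Number of consecutive 160 kb tiles (log scale) by the number of listed regions they hold, for injected thymocytes (red) and NKT cells (blue); dotted lines mark the counts of the Id3 and Id2 windows. Tiles with more than 7 regions, of which injected thymocytes have 1 with 13 and 1 with 43, are not drawn. Few injected-thymocyte tiles reach the 3 regions of the Id3 window (72 hold exactly 3), whereas 2926 hold the single region of the Id2 window.

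The windows' edges mattered more at Id2. The nearest injected-thymocyte region below the Id2 window, chr12:25673165-25673316, lay only 26.7 kb outside it and had a density of 11.1, slightly above that of the region inside. It held 16 ChIP tags and 5 control tags, a scaled ratio of 2.37 (interval 0.831 to 8.28). By this interval its tags did not exceed the control beyond counting error. The deposited −log10 q values of this region were higher than those of the region inside, which held 14 ChIP tags. They were 7.38 against 4.67 in the region lines and 26.4 against 24.3 in the peak lines. The weak Id3-window region, with 14 ChIP tags and 2 control tags, also had 4.67 in its region line. The region-line value thus did not change with these control tags, and it is not evidence against the interval. Above the Id2 window the nearest was chr12:26081105-26081272, at 221 kb, with the lowest listed density of 10.03. Below the Id3 window the nearest was chr4:135474840-135475057, at 125 kb, with a density of 10.8, equal to that of the weak region inside, and 25 ChIP tags over 3 control tags. Above it the nearest was chr4:136074121-136074247, at 314 kb, with 12.2. No region just outside either window came near the height of the tall or the middle Id3-window region.

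**Figure D4:**
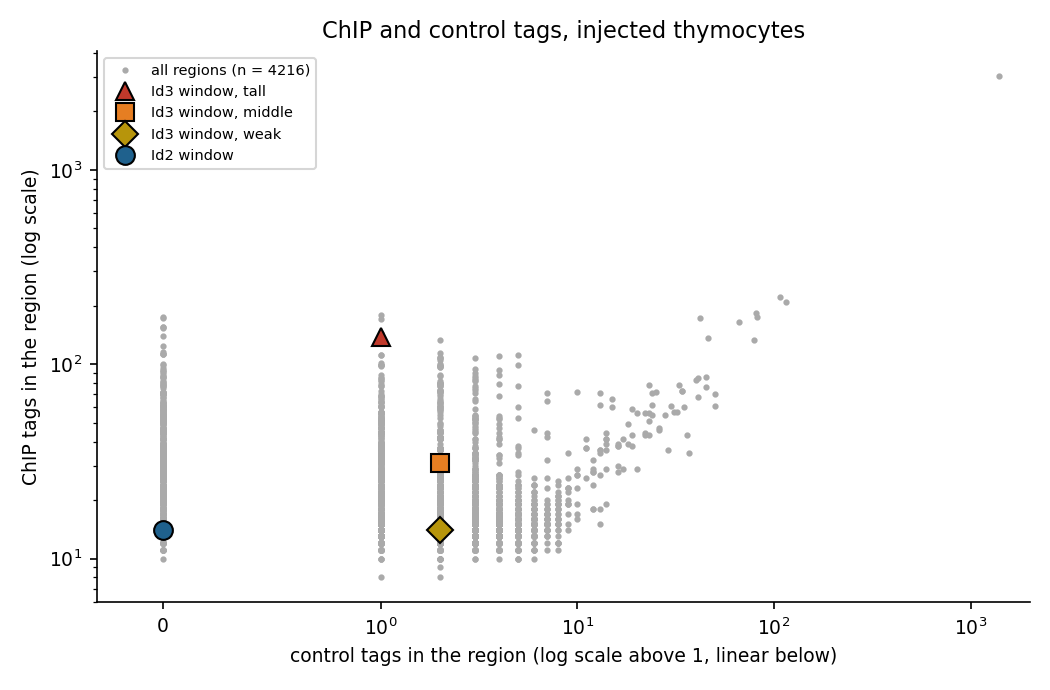
ChIP tags (log scale) against control tags (log scale above 1, linear below) of the 4216 injected-thymocyte regions, with the regions of the 2 windows as large symbols. The tall Id3-window region has 138 ChIP tags over 1 control tag, and the other 3 have 14 to 31 over 0 to 2.

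The deposited strand values compare tags of the forward and reverse strand, and those of the peak lines and of the region lines did not rank the 4 regions alike. In the peak lines the strand shift was 110 bp for the tall, 90 bp for the middle and 101 bp for the weak Id3-window region and 86 bp for the Id2-window region, against list quartiles of 78 and 95 bp. The strand correlation of the peak lines was 0.979 in the tall region, with 8.40% of the list at or above it, and 0.967 in the Id2-window region, with 14.6%. It was 0.732 in the weak region. In the middle region it was 0.311, and 96.7% of the list stood at or above it. Of the 1054 regions in the upper density quartile, 46 (4.36%) had a correlation as low. In the region lines the correlation was 0.622 in the tall region, with 79.2% of the list at or above it, and 0.508 in the middle one, with 87.2%. There it was 0.802 in the weak region and 0.975 in the Id2-window region. The middle region was thus the lowest of the 4 in both kinds of line, but the tall region was high in its peak line only. The region line of the middle region also gave a shift of -140 bp where its peak line gave 90 bp, and such a shift below 0 occurred in 5.03% of the list and in 8.25% of the upper quartile. In the other 3 regions the shifts of both lines differed by at most 4 bp. The Id2-window region had a high correlation in both lines. What sets these strand values was not tested.

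**Figure D5:**
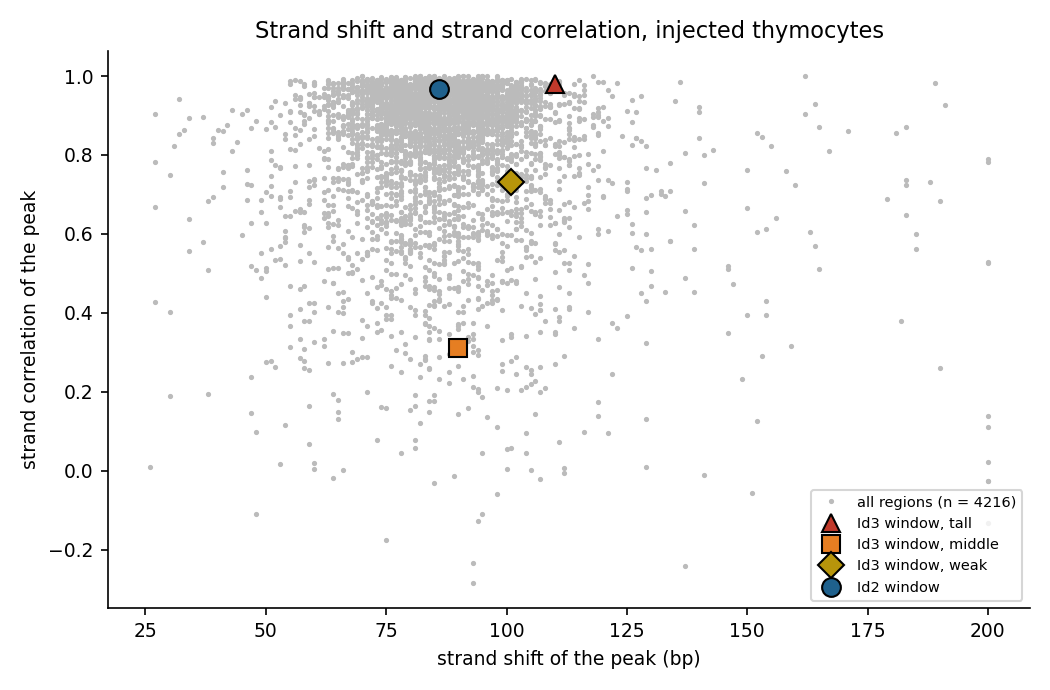
Strand correlation against strand shift (bp) from the peak lines of the 4216 injected-thymocyte regions, with the regions of the 2 windows as large symbols. The tall Id3-window region (110 bp, 0.979) and the Id2-window region (86 bp, 0.967) lie at the top, and the middle Id3-window region (90 bp, 0.311) lies far below most regions of similar shift.

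Compared by width, the tall region was also broad for the list, with 1.90% of regions at least as wide. Among the 19 regions at or above its height, whose median width was 494 bp, 7 were at least as wide and 12 had at least as many ChIP tags. Its summit was near the middle of the region, 257 bp from the lower and 261 bp from the upper end. The middle region had 12.4% of the list at least as wide, the weak region 41.0% and the Id2-window region 79.4%. Per 100 bp, the tall region held 26.6 ChIP tags, the middle 9.75, the weak 8.05 and the Id2-window region 11.2. The Id2-window region was thus narrow, and its few tags were no more spread out than those of the middle and weak Id3-window regions.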

How the data were processed

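Egr2 ChIP-seq was analysed in 1 library of injected thymocytes and 1 of NKT cells. The submitters' processing notes name Bowtie and the build mm9. The version of Bowtie, the peak caller, its settings and the control library are not stated in the labels or files. Input and IgG libraries were not analysed here. In the deposited lists each region line is paired with 1 peak line. The signal values are the ChIP and control tag densities that the authors deposited, and the ratio that the authors deposited as fold is the ChIP density over the control density, or over 1 where the control density is lower, so that it equals the ChIP density in 3 of the 4 window regions. Tag counts, tag enrichment, strand shift, strand correlation and −log10 q values are also deposited values per region. How the tag enrichment is computed is not stated. It did not follow control tags where these were few: at 14 ChIP tags it was 3.82 with 0 and with 2 control tags. In all 3 Id3-window regions it was below the scaled ratio. Coordinates are given as listed; whether they count from 0 or 1 is not stated, and widths take both ends as included.

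The members and lists of genes were chosen with earlier results of these data known. Every region in the windows, the nearest listed region on each side, and genes next to Id3 and Id2 are named. Regions were shared at an overlap of 1 bp. Tag ratios were scaled by 0.742, the median ratio of deposited enrichment to raw tag ratio in the 7 injected-thymocyte regions with more than 50 control tags (1.14 from 17 regions in NKT cells); that this reflects depth is an assumption, since library depths were not given. Intervals are 95% exact (Clopper-Pearson) and assume independent tags, although 16 PCR cycles were used and duplicates are not independent. A median region rests on 16 ChIP tags in injected thymocytes and 15 in NKT cells, which limits precision. In the injected-thymocyte list 759 of the numbers up to 4975 are absent as analysed. Tiles run from the first to the last listed region of each chromosome. The planned distances to genes and the search for motifs in the regions were not run without an mm9 genome. Alternatives covered window size, list thresholds, overlap, ranking, scaling and tiles. Scripts used Python 3.11.15, pandas 2.3.3 and scipy 1.17.1, and were tested on made-up lists with known answers.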

Additional observations from a re-analysis of the deposited data

How the results depend on the processing

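Under 53 alternatives, 12 values moved out of the interval of the reported value or, for counts, by more than 1.5 times, and 41 did not. A value within a wide interval counts as not moved: the tag ratio of the tall Id3-window region was 102 when scaled and 138 unscaled. Its deposited enrichment of 21.9 also lay in the interval, but is another quantity and no second estimate of this ratio. The same holds for the deposited enrichment of the other window regions. The Id3 window held 3 injected-thymocyte regions as reported, 4 when extended by 160 kb on both sides and 2 in its central 80 kb, which leaves out the tall region. It held 2 in the upper 50% of the list by density, and 2 with a strand shift of 60 bp or more in the region line, a criterion chosen after seeing the data; a shift of 60 bp or more in the peak line, or a control density under 3, left 3. The Id2 window went from 1 region to 2 when extended by 32 kb or by 160 kb on both sides, and to 0 in the upper 50% of the list. NKT counts were 0 in both windows, and overlaps with NKT regions 0, under each alternative run. These counts of 0 could not have come out otherwise. Thresholds only remove regions, the widest extension was 160 kb, and the nearest NKT region lay 422 kb outside a window. The NKT counts and overlaps are among the 41 values that did not move, and say nothing about stability. Tiles of 80 kb lowered, by construction, the share with 3 or more injected-thymocyte regions from 0.572% to 0.123%, that with 1 or more from 21.8% to 11.8%, and that with 1 or more NKT regions from 11.3% to 5.93%. Ranked by ChIP tags in place of density, 14.2% of the list stood at or above the middle Id3-window region and 82.9% at or above the weak one and the Id2-window region; by deposited fold it was 8.73%, 84.5% and 46.1%. The changes by fold follow from its definition. The weak region had a control density of 1.84, whereas the middle and the Id2-window region had 0, so that their fold equals their density. What sets the ranks by ChIP tags was not tested. No paired analysis was possible because there is 1 library per condition and no result comes from a test between conditions.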

Other observations

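Region lines and peak lines carry separate strand values, and they disagreed in part of both lists. The shifts of both lines differed by more than 20 bp in 293 injected-thymocyte regions (6.95%) and 74 NKT regions (3.71%). A shift below 0 occurred in 212 and 53 region lines and in 0 peak lines of either list. The nearest NKT region below the Id3 window, chr4:134960023-134960270, was among them, with -171 bp in its region line and 83 bp in its peak line. A listed injected-thymocyte summit lay 2.25 kb from it, although their regions did not overlap.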
